A study of Mus musculus with 12 samples.

Results

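Astrocytes clear potassium, glutamate and water from the extracellular space of the brain, and 9 mouse genes of that machinery were listed for description: the channel subunits Kcnj10 and Kcnj16, the glutamate transporters Slc1a2 and Slc1a3, the glutamine synthetase gene Glul, the bicarbonate transporter Slc4a4, the water channel Aqp4 and the connexins Gja1 and Gjb6. The genes were chosen by name for their function, with earlier results of these data known, and 8 of the 9 have a row among the 14801 genes of the deposited expression table. The expression of Gjb6 was not analysed here. RNA was sequenced from primary cerebrocortical cells of 6 wild-type mouse fetuses at gestational day 17.5. The cells were grown for 9 days, kept for 24 h without the B27 supplement, and then either given 10 nM 3,5,3'-triiodothyronine (T3, the active thyroid hormone) for 24 h or left without it. Each fetus, called a mouse here, gave 1 culture of each kind, so the 12 libraries form 6 pairs. The supplement was withdrawn from every culture, with or without T3, and the cultures hold neurons beside glia. The labels do not say which litters the fetuses came from, so the p-values cover only the spread between these 6 mice.

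Active neurons release potassium and glutamate into a narrow extracellular space. Astrocytes take up the potassium through the Na,K-ATPase and through inwardly rectifying channels, of which Kir4.1, the product of Kcnj10, carries most of the resting potassium conductance; the Kir5.1 subunit encoded by Kcnj16 conducts little alone and joins Kir4.1 in mixed channels. Glutamate enters through GLT-1 (Slc1a2) and GLAST (Slc1a3), driven by the sodium and potassium gradients, and glutamine synthetase (Glul) turns it into glutamine. NBCe1 (Slc4a4) carries sodium with bicarbonate, aquaporin-4 (Aqp4) passes water at the endfeet around blood vessels, and connexin 43 (Gja1) joins astrocytes into a network through gap junctions.

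With T3, 4 of the 8 measured genes rose and none fell. Kcnj10 rose 2.48-fold, while Slc1a2 rose 1.35-fold, Slc4a4 1.36-fold and Aqp4 1.23-fold. Kcnj16, Slc1a3, Glul and Gja1 did not pass the test, with fitted ratios of 1.15, 1.11, 1.05 and 1.14. A gene was called when its adjusted p was under 0.05 in limma, fitted to log2(value + 0.5) with the mouse as a block and adjusted by the Benjamini-Hochberg method over 13663 genes; 3.37% of those genes were higher with T3 by this rule, 2.14% were lower and 5.52% changed either way. All 8 genes passed the filter on low counts. Their log2 changes were all above 0, with a median of 0.25, whereas 51.1% of all tested genes were above 0 and their median was 0.0031. For Kcnj10, Slc1a2 and Slc4a4, 3 of the 8, the value was higher with T3 in 6 of 6 mice, as it was for 5.79% of all tested genes. Values are CPM (read counts scaled to library size, here with the TMM method), and folds are on the log2(value + 0.5) scale.

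The libraries held 5272092 to 10837895 reads in listed genes, and the T3 library was the deeper in 6 of 6 mice, by 1.03 to 1.67 times. A count of 3 reads, the limit that a count of 0 allows, equalled 0.273 to 0.557 CPM, counting error only. The thyroid hormone response gene Hr averaged 5.49 ± 1.24 CPM without T3 and 46.5 ± 2.92 CPM with it (SD, n = 6), with no overlap. Apart from the rest was the culture of mouse 4 that got no T3: in its library 52 genes were over 4-fold above each of the other 11 libraries, among them the muscle genes Myh7, at 706 CPM against at most 3.81 elsewhere, and Ttn, at 304 CPM against at most 1.95. None of the 8 transport genes was among the 52, and leaving mouse 4 out gave log2 changes of 1.26 for Kcnj10, 0.40 for Slc1a2, 0.40 for Slc4a4 and 0.30 for Aqp4, the last with an adjusted p of 0.0684 by limma. Of 28 tested astrocyte identity markers, 8 rose with T3 (Gfap, Aldh1l1, Acsbg1, F3, Gpr37l1, Ttyh1, Htra1 and Pla2g7) and none fell, with a median log2 change of 0.18. Their summed level ran from 1937 to 5208 CPM without T3 and from 2786 to 5370 CPM with T3. Of 9 tested oligodendrocyte precursor markers, 3 rose (Olig1, Olig2 and Gpr17) and none fell, and their sum ran from 314 to 467 CPM without T3 and from 413 to 528 CPM with it. Of 12 tested markers of cycling cells, 5 fell (Mcm2, Mcm3, Mcm5, Mcm6 and Bub1), none rose and none had a log2 change above 0. Their median log2 change was -0.40, and their mean was below 0 in 6 of 6 mice. Their sum ran from 182 to 362 CPM without T3 and from 146 to 188 CPM with it. The sum of 362 CPM came from the mouse 4 culture that stood apart, and the next highest without T3 was 240 CPM. Of 16 tested neuron markers, 3 rose (Rbfox3, Nefl and Nefm, the last 2 being genes that overlap on opposite strands) and 1 fell (Slc17a6), with a median log2 change of -0.039. The part of these shifts in the results below was not tested. Below, Kcnj10 is set against the identity markers within each mouse, but 8 of these markers rose with T3 themselves. In RNA from whole cultures, a changed number of cells of a type and a changed amount of RNA per cell cannot be told apart.

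Kcnj10 (ENSMUSG00000044708) lies on the plus strand of chromosome 1 at 172341210 to 172374085 (GRCm38), and its values rested on 209 to 2578 reads per library. Without T3 it stood at 115, 44.5, 37.0, 38.8, 105 and 28.6 CPM in mice 1 to 6. With T3 the same mice gave 274, 105, 95.2, 116, 235 and 71.0 CPM. Every mouse was higher with T3, although the groups overlapped because mice 1 and 5 already stood high without it, above mice 3 and 6 with T3. The group means were 61.5 ± 38.0 CPM without T3 and 149 ± 83.5 CPM with it (SD, n = 6). The fold within a mouse was far less variable than the level, from 2.24 in mouse 5 to 3.00 in mouse 4. The fitted log2 change was 1.31 (SE 0.059, adjusted p = 7.96e-12 by limma), a 2.48-fold rise with a 95% interval from 2.28 to 2.70. Ranked by log2 change, Kcnj10 was the 10th of the 13663 tested genes.

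Kcnj16 (ENSMUSG00000051497; chromosome 11, 110968033 to 111027968, plus strand) was scarce, with 18 to 91 reads per library. It had a lowest, median and highest value of 3.34, 5.97 and 8.89 CPM without T3, and of 4.15, 6.74 and 9.35 CPM with T3. It was higher with T3 in 4 mice and lower in mice 5 and 6, and the groups overlapped almost entirely. Its log2 change was 0.20 (SE 0.15, adjusted p = 0.534 by limma), with a 95% interval from -0.10 to 0.51; that interval lies below the log2 change of Kcnj10. The ratio of Kcnj10 to Kcnj16 CPM went from 9.85 ± 3.15 without T3 to 20.8 ± 6.51 with it (SD, n = 6), higher in 6 of 6 mice. The RNA of Kcnj10 thus rose in every mouse relative to that of Kcnj16, for which these libraries gave few reads.

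The 250 bases before the RefSeq start of each gene (GRCm38.p6) were read for AGGTCA, the hexamer that nuclear receptors, the thyroid hormone receptors among them, are known to bind, on either strand, and for the spaced direct repeat (AGGTCA, 4 bases of any kind, AGGTCA), whose matches also count as matches of the hexamer. Of 12 windows before starts of 8 of the genes, Gjb6 included and Aqp4 left out, 3 held the hexamer and none the repeat. Over 32851 such windows of all genes, 14.0% held the hexamer and 0.0152% the repeat. Shown here are the window before Kcnj10, which has no match, and the 3 windows with matches, 1 before Slc4a4, which rose, and 2 before Glul and Kcnj16, which did not pass the test. Capitals mark AGGTCA or its reverse complement TGACCT, and all 4 genes are on the plus strand.
Kcnj10, chr1:172340960-172341209: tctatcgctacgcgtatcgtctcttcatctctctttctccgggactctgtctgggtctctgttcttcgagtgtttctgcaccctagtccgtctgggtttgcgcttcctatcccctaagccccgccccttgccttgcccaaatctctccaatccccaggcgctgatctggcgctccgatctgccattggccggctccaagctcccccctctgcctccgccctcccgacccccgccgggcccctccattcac
Glul, chr1:153899679-153899928: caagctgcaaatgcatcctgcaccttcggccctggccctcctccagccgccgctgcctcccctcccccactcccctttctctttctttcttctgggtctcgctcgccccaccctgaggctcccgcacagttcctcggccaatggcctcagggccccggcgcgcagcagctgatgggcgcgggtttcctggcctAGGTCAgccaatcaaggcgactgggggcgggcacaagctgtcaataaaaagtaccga
Kcnj16, chr11:110967783-110968032: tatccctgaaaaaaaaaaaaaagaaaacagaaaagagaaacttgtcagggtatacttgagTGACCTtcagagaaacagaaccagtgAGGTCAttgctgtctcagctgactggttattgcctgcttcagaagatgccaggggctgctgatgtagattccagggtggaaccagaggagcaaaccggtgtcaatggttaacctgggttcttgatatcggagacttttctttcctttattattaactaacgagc
Slc4a4, chr5:89027716-89027965: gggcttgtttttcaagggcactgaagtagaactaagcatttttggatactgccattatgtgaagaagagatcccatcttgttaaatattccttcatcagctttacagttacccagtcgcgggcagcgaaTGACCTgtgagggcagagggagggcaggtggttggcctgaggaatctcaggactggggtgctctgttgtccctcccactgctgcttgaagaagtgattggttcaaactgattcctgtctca
The Kcnj16 window shown held 1 match on each strand, and the other windows before Kcnj16 held none. The Glul window held 1 match on the plus strand. The Slc4a4 window, before an internal start of that gene, held 1 on the minus strand, and another window before Slc4a4 held none. A match is a string of letters and not a site of binding, and no match says only that the string is not in that window.

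**Figure D1:**
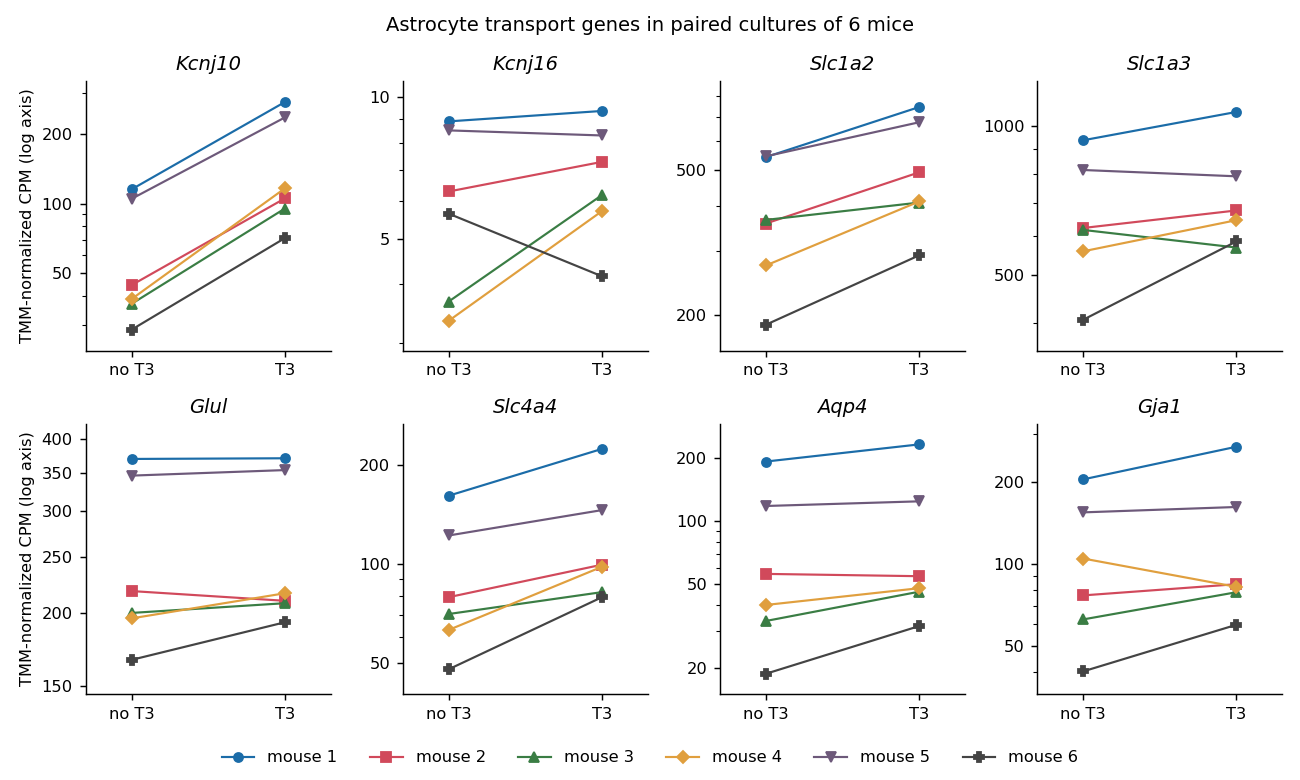
Level of the 8 measured genes in CPM (log axis) without and with T3, 1 line per mouse. The Kcnj10 lines all rise by similar amounts, from 28.6 to 115 CPM without T3 to 71.0 to 274 CPM with it, while those of Glul are nearly flat.

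Slc1a2 (ENSMUSG00000005089; chromosome 2, 102658659 to 102790784, plus strand) encodes GLT-1, the main glutamate transporter of the adult forebrain. Its lowest, median and highest values were 188, 361 and 546 CPM without T3 and 292, 452 and 745 CPM with T3. Every mouse was higher with T3, by 1.12-fold to 1.55-fold, and the groups overlapped. The log2 change was 0.43 (SE 0.056, adjusted p = 4.12e-05 by limma), a 1.35-fold rise with a 95% interval from 1.25 to 1.47. An antisense gene, Gm13872, covers 1.44% of its exon length, and the library kit did not mark strand, so reads there cannot be assigned.

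Slc1a3 (ENSMUSG00000005360; chromosome 15, 8634124 to 8710764, minus strand) encodes GLAST, the transporter that prevails early in cortical development. It stood at 659 ± 189 CPM without T3 and 722 ± 187 CPM with it (SD, n = 6). It was higher with T3 in 4 mice and lower in mice 3 and 5, with ratios from 0.921 to 1.44. The log2 change of 0.15 (SE 0.065) did not pass (adjusted p = 0.248 by limma). The ratio of Slc1a2 to Slc1a3 CPM was 0.561 ± 0.074 without T3 and 0.689 ± 0.117 with T3 (SD, n = 6), higher in 6 of 6 mice, given as a description without a test.

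Glul (ENSMUSG00000026473; chromosome 1, 153899944 to 153909723, plus strand) changed least of the 8. Its lowest, median and highest values were 166, 209 and 369 CPM without T3 and 193, 213 and 370 CPM with T3, and the groups overlapped over most of their range. It was slightly higher in 5 mice and lower in mouse 2, with ratios from 0.962 to 1.16. The log2 change was 0.066 (SE 0.049, adjusted p = 0.557 by limma), with a 95% interval from -0.037 to 0.17 that leaves out a rise of the size of Slc1a2. The level of Glul is uncertain to the extent that reads were shared with its listed pseudogene Glns-ps1, which stood at 24.1 ± 9.51 CPM without T3 and 25.8 ± 7.26 CPM with it (SD, n = 6); Teddm2 on the opposite strand and Mir8114 cover 3.49% and 2.8% of the exon length.

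Slc4a4 (ENSMUSG00000060961; chromosome 5, 88886818 to 89239653, plus strand) encodes the electrogenic sodium bicarbonate cotransporter by which astrocytes answer potassium with a change of pH. Its values ran from 47.8 to 161 CPM without T3, with a median of 74.7 CPM, and from 79.1 to 223 CPM with T3, with a median of 98.6 CPM. Every mouse was higher with T3, by 1.17-fold to 1.66-fold, and the groups overlapped. The log2 change was 0.44 (SE 0.065, adjusted p = 0.000199 by limma), a 1.36-fold rise with a 95% interval from 1.23 to 1.49.

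Aqp4 (ENSMUSG00000024411; chromosome 18, 15389496 to 15410982, minus strand) differed more between mice than any other of the 8. Without T3 it stood at 193, 56.1, 33.5, 39.9, 118 and 18.8 CPM in mice 1 to 6, a 10.3-fold span. With T3 the values were 232, 54.7, 46.2, 48.0, 124 and 31.7 CPM, lower in mouse 2 and higher in the other 5. The span between mice therefore exceeded the change within them, and the groups overlapped. The log2 change was 0.29 (SE 0.080, adjusted p = 0.038 by limma), a 1.23-fold rise with a 95% interval from 1.09 to 1.38. This call was lost without mouse 1 (adjusted p = 0.0658 by limma), without mouse 3 (0.156), without mouse 4 (0.0684) and without mouse 6 (0.124).

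Gja1 (ENSMUSG00000050953; chromosome 10, 56377330 to 56402513, plus strand) stood at 204, 76.5, 62.4, 105, 154 and 40.2 CPM without T3 in mice 1 to 6. With T3 it stood at 269, 84.1, 78.6, 82.2, 162 and 59.6 CPM. It was higher in 5 mice and lower in mouse 4, whose library without T3 is the one with the muscle genes. The log2 change was 0.19 (SE 0.096, adjusted p = 0.338 by limma). Without mouse 4 it was 0.30 (SE 0.070), and Gja1 then passed (adjusted p = 0.0184 by limma).

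The mouse was part of every one of these calls. In the same limma fit without the mouse as a block, none of the 8 genes passed (adjusted p = 0.288 for Kcnj10, 0.734 for Slc1a2, 0.768 for Slc4a4 and 0.943 for Aqp4), 1 of the 8 had an unadjusted p under 0.05, and 1.3% of all genes were called. With the block, edgeR, limma-voom and DESeq2 called the same 4 genes as limma. Without mouse 4, limma called Kcnj10, Slc1a2, Slc4a4 and Gja1.

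Kcnj10 was then set against the shared change of the other 7 genes within each pair. The mean log2 change of the others was 0.27, 0.16, 0.26, 0.31, 0.094 and 0.43 in mice 1 to 6. Kcnj10 lay above that mean by 0.98, 1.07, 1.097, 1.26, 1.07 and 0.87, a mean difference of 1.06 ± 0.13 (SD, n = 6), or 2.08-fold beyond the others. The difference was above 0 in 6 of 6 mice (exact two-sided sign-flip permutation test, p = 0.03125, the smallest that 6 pairs allow); Kcnj10 had been singled out with earlier results of these data known. The same test was run for each of the 8 genes against the other 7, and after Benjamini-Hochberg adjustment over these 8 exact permutation tests none passed, the adjusted p of Kcnj10 being 0.0833. In every mouse it changed more than each of the other 7 genes, with a smallest margin of 0.56 on the log2 scale. The others were not flat, since 35 of their 42 log2 changes were above 0, but none exceeded 0.74.

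**Figure D2:**
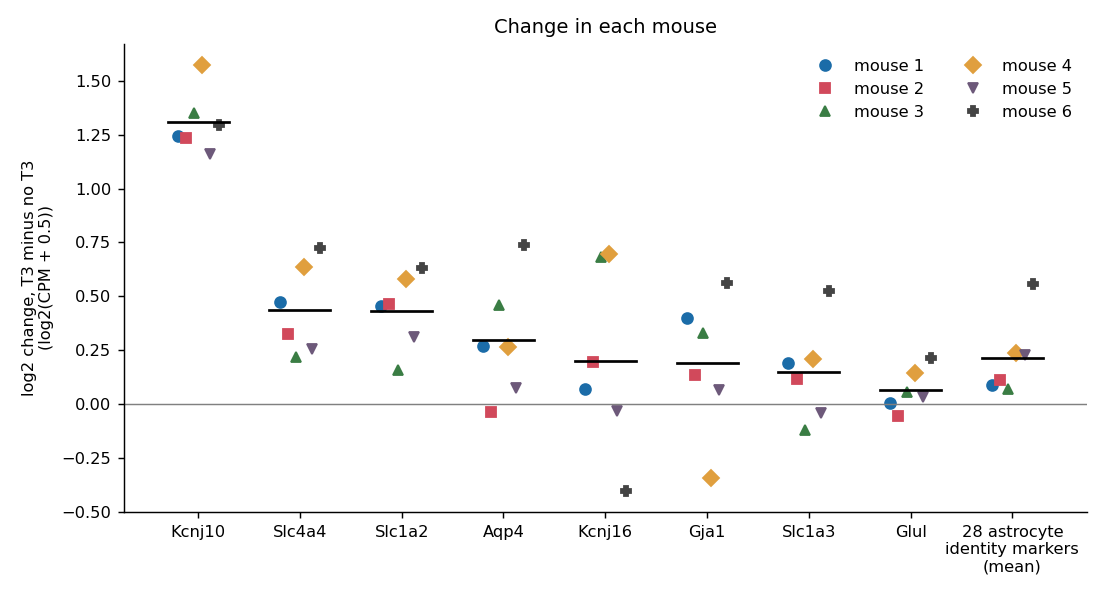
Change with T3 within each mouse (log2 scale) for the 8 genes and for the mean of 28 astrocyte identity markers; each point is a mouse and each bar a mean. The Kcnj10 points, from 1.16 to 1.57, lie above every point of the other genes, the highest of which is at 0.74.

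The astrocyte identity markers give a second reference within each pair. Their mean log2 change was 0.086, 0.11, 0.069, 0.24, 0.23 and 0.56 in mice 1 to 6, above 0 in each. Kcnj10 exceeded it by 1.16, 1.12, 1.28, 1.34, 0.93 and 0.74, with the least excess in mouse 6, where the markers moved most. Slc1a3 and Glul, by contrast, lay below the mean of the remaining 7 transport genes in 6 of 6 mice, by mean log2 differences of -0.27 and -0.37; that mean includes Kcnj10. Both gave the same exact permutation p as Kcnj10, 0.03125, and the same adjusted p, 0.0833. The mean of the 7 genes other than Kcnj10, given above, includes Slc1a3 and Glul themselves. In mouse 6 alone Slc1a3 lay above that mean, at 0.53 against 0.43, while Glul lay below it in every mouse. Neither gene was tested with Kcnj10 left out.

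The mice kept a common order across the genes. Without T3, mice 1 and 5 had the 2 highest values for 8 of 8 genes, and mouse 6 had the lowest for 7 of them, mouse 4 taking that place for Kcnj16. The share of all tested genes with this order was not counted. The summed astrocyte identity markers without T3 were also highest in mice 1 (5208 CPM) and 5 (3940 CPM) and lowest in mouse 6 (1937 CPM). The summed level of the 8 genes was 2530.0 CPM in mouse 1 and 902 CPM in mouse 6 without T3, and 3191 and 1316 CPM with T3. Over the 6 cultures without T3, each gene was compared with the mean log2 level of the identity markers, in 8 relations measured in the same libraries. Pearson's r was between 0.925 (Kcnj10) and 0.992 (Slc1a3) for 7 genes, with exact permutation p from 0.00139 to 0.00972 and adjusted p from 0.0037 to 0.0111. For Kcnj16 it was 0.567 (exact permutation p = 0.243, adjusted p = 0.243). Spearman's rho ran from 0.829 (Kcnj16 and Gja1, exact permutation p = 0.0583, adjusted p = 0.0583) to 1.0 (Slc1a3, Glul and Slc4a4, exact permutation p = 0.00278, adjusted p = 0.00741). Without mice 1 and 6, which lie farthest from the median of the marker mean, r was 0.762 for Gja1, 0.841 for Kcnj16, 0.985 for Kcnj10 and between 0.931 and 0.993 for the other 5. By Pearson's r, cultures with more RNA of astrocyte markers thus held more RNA of 7 of the 8 transport genes. The share of all tested genes with such an r was not counted, so whether this sets the transport genes apart was not tested. By Spearman's rho, neither Gja1 nor Kcnj16 passed.

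To set the levels of the 8 genes side by side, CPM were divided by exon length, which counts every base in any annotated exon of the gene. The transcripts expressed may be shorter, and the order depends on this length. Without T3, Slc1a3 (77.2 CPM per kb) and Glul (75.0) were highest and in changing order, with Slc1a3 above Glul in 3 of 6 mice. Slc1a2 followed at 28.9 CPM per kb, below Glul in 6 of 6 mice. Before division by length, Slc1a2 averaged 379 CPM without T3 and Glul 249 CPM. Aqp4 (12.3), Kcnj10 (11.4), Gja1 (10.4) and Slc4a4 (8.37 CPM per kb) were close: Kcnj10 was below Aqp4 in only 2 mice, Gja1 below Kcnj10 in 5 and Slc4a4 below Gja1 in 4. Kcnj16 came last, at 1.54 CPM per kb, below Slc4a4 in 6 of 6 mice. With T3, Kcnj10 averaged 27.6 CPM per kb, against 14.4 for Aqp4, 12.0 for Gja1 and 11.2 for Slc4a4, and 38.4 for Slc1a2.

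Other genes of the same pathways were taken from 6 lists of 97 genes, of which 73 were tested. Among these 73, 12 rose and 3 fell, which is 20.5% called, beside 5.52% of all tested genes. In potassium and sodium clearance 4 of 17 tested genes rose and none fell, with a median log2 change of 0.086. Atp1b2 encodes the β2 subunit of the Na,K-ATPase, typical of astrocytes. Atp1b2 went from 331 ± 55.0 to 425 ± 79.3 CPM (SD, n = 6; log2 change 0.35, SE 0.052, adjusted p = 0.000171 by limma), higher in 6 of 6 mice. The potassium chloride cotransporter gene Slc12a4 (log2 change 0.35) and Kcnk1, which encodes a channel subunit of the K2P family (0.29), rose as well, but each lost its call in the DESeq2 fit, Slc12a4 also without mouse 4, 5 or 6, and Kcnk1 without mouse 1, 3, 4 or 6. Atp1b1, another Na,K-ATPase subunit gene, at 1061 ± 51.7 CPM without T3 (SD, n = 6), did not pass (log2 change 0.12, adjusted p = 0.108 by limma); Nme7 on the opposite strand covers 18.66% of its exon length.

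The other Kir channel subunits did not move one way. Of 8 tested, Kcnj6, a subunit of G-protein-gated channels of neurons, rose from 5.66 ± 0.607 to 8.91 ± 1.26 CPM (SD, n = 6; log2 change 0.61, adjusted p = 0.00431 by limma). Kcnj2, which encodes Kir2.1, fell from 13.9 ± 1.52 to 9.70 ± 0.894 CPM (SD, n = 6; log2 change -0.50, adjusted p = 0.00188 by limma). In both genes the 2 groups did not overlap, which held for 1.68% of tested genes. Kcnj3, another subunit of G-protein-gated channels, was at 38.4 ± 5.84 and 37.0 ± 2.74 CPM (SD, n = 6; log2 change -0.044, adjusted p = 0.821 by limma).

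In glutamate and glutamine handling 4 of 17 tested genes rose and 2 fell, with a median log2 change of 0.075. Gls2, a glutaminase, rose from 2.96 ± 0.598 to 7.49 ± 0.989 CPM (SD, n = 6; log2 change 1.22, SE 0.15, adjusted p = 1.49e-05 by limma), with no overlap, on 15 to 83 reads per library. Slc38a3, which encodes the glutamine transporter SNAT3 of astrocytes, rose from 66.2 ± 26.9 to 97.1 ± 33.8 CPM (SD, n = 6; log2 change 0.59, adjusted p = 0.00508 by limma), a call lost without mouse 5 (adjusted p = 0.0548 by limma). Pcx, the pyruvate carboxylase by which astrocytes replenish the carbon skeleton of glutamate, rose with a log2 change of 0.55, and Got1, an aspartate aminotransferase, with 0.24, a call lost without mouse 3. The glutamate receptor genes Grm3 and Grm5 fell, with log2 changes of -0.30 and -0.24. Grm5 was lower in 6 of 6 mice, while the call of Grm3 was lost in the DESeq2 fit and without mouse 1, 2, 3 or 6.

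Around Slc4a4 and Aqp4 fewer genes passed. In bicarbonate and proton transport, Slc4a8, a sodium-driven chloride bicarbonate exchanger, rose with a log2 change of 0.28 (adjusted p = 0.00109 by limma), alone among 10 tested, and its relative Slc4a10 had a log2 change of -0.051. In the list of water transport and the endfoot scaffold, 2 of 15 tested genes rose. Dtna, which encodes α-dystrobrevin of the complex that holds aquaporin-4 at endfeet, went from 108 ± 23.5 to 144 ± 29.0 CPM (SD, n = 6; log2 change 0.43, SE 0.051, adjusted p = 1.49e-05 by limma), higher in 6 of 6 mice. Megf10, a phagocytic receptor of astrocytes, rose with a log2 change of 0.35, a call lost in the DESeq2 fit and without mouse 1, 3 or 6; Agrn, which encodes agrin of the basal lamina at endfeet, had a log2 change of -0.062. Of 6 tested gap junction and pannexin genes none passed in limma, edgeR, limma-voom or DESeq2, 4 had an unadjusted p under 0.05 in limma, and Panx1, a pannexin gene, had a log2 change of -0.078.

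**Figure D3:**
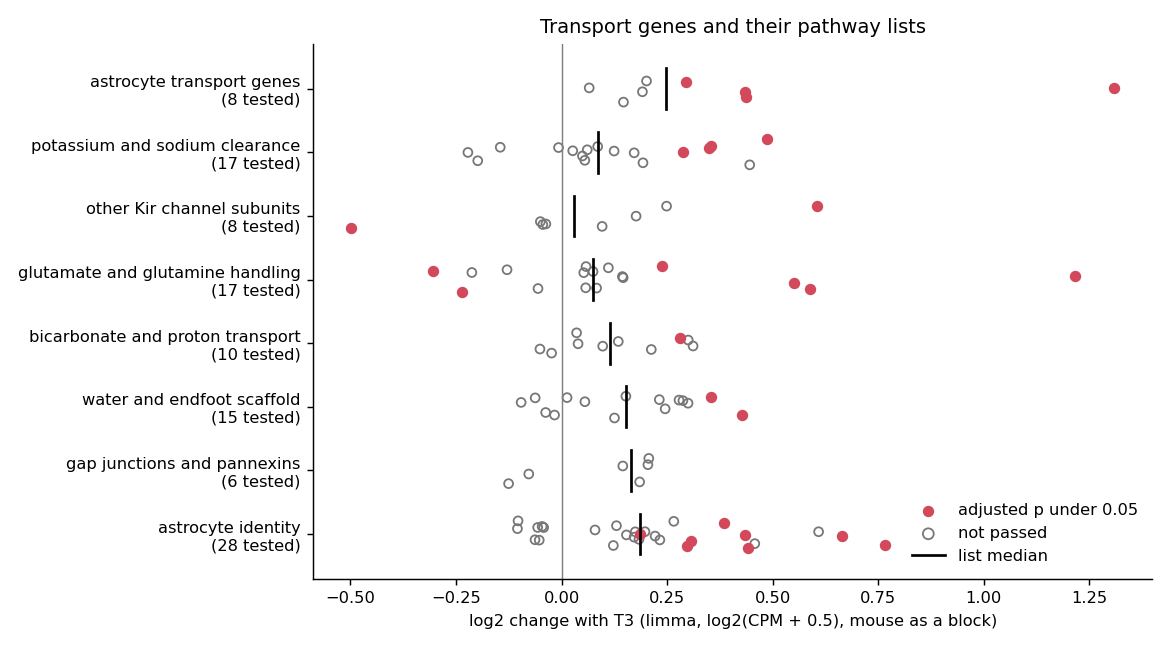
Fitted log2 change with T3 of each tested gene in the transport set, the 6 pathway lists and the astrocyte identity markers; filled points have an adjusted p under 0.05 and bars are list medians. Kcnj10, at 1.31, and Gls2, at 1.22, lie farthest right, and the list medians run from 0.029 to 0.25.

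Genes within 200 kb of Kcnj10 were described as well. Igsf9, an immunoglobulin superfamily gene 107.7 kb beyond the end of Kcnj10, went from 24.8 ± 3.57 to 30.5 ± 3.29 CPM (SD, n = 6; log2 change 0.30, SE 0.079, adjusted p = 0.0282 by limma). The nearest tested genes on either side did not pass: Kcnj9, another Kir channel gene 11.9 kb before, had a log2 change of 0.096 (adjusted p = 0.74 by limma), and Pigm, 2.5 kb after, had 0.12 (adjusted p = 0.532 by limma). Igsf8, Dcaf8, Pea15a and Tagln2 had log2 changes of 0.021, 0.078, -0.037 and -0.025.

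Across the 12 libraries, which share pairs and depth, the genes most like Kcnj10 by Pearson's r of log2 levels were Atp1b2 (r = 0.962), Sat1 (0.961), Smim8 (0.952), Gbp3 (0.951) and Gpr37l1 (0.95), out of 13258 candidates. Among the 5 genes most like the mean of the other 7 transport genes were Plpp3 (r = 0.989), Qk (0.983), Myo6 (0.981) and Glns-ps1 (0.979). The last is the pseudogene that may share reads with Glul, and Glul is among those 7. Of those most like Kcnj10, Gbp3 had the highest log2 change with T3, 0.92, and Smim8 the lowest, 0.23; Kcnj10's own was 1.31.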

How the data were processed

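RNA-seq libraries (500 ng total RNA, TruSeq v2, single reads of 75 bases, per the labels' protocols) were made from 12 cultures. Per the submitters' processing notes the authors used CASAVA, FastQC, Bowtie, TopHat, HTSeq, edgeR and GRCm38; their versions and settings were not found in the labels. What they deposited is a normalised signal per gene, CPM with TMM scaling; each listed gene reaches 1 CPM in at least 2 libraries, and 100% of values came out as whole reads, within 0.01 of a read, when divided by the value of 1 read. That unit differs from raw counts, so log values were tested.

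Genes were filtered with filterByExpr on the recovered reads (1138 removed, 13663 tested). T3 was compared with no T3 by limma 3.58.1 (R 4.3.3) with a block for the mouse, robust and trended variance estimates and a pseudocount of 0.5 before the log2, checked on simulated data, with Benjamini-Hochberg adjustment over all tested genes. Mice pair the cultures by source, per the design text. Deviations from the group means correlated at 0.237 to 0.638 within mice. Between different mice the correlation had a median of -0.106 and reached 0.348, above the lowest value within mice. Alternatives were edgeR 4.0.16, limma-voom and DESeq2 1.42.0 on recovered reads, other scaling, pseudocounts and filters, no block, and each mouse left out. Kcnj10 against the other genes used an exact sign-flip test over all sign patterns, with the Benjamini-Hochberg adjustment from scipy 1.17.1. Gene positions came from GENCODE M21 (GRCm38) and promoter windows from RefSeq (GRCm38.p6).

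The genes named are the 9 transport genes, list members past the threshold, the gene of highest mean CPM without T3 in each pathway list, the 5 genes most like each pattern, the tested neighbours of Kcnj10, and identity or library checks. The members and lists were chosen with earlier results of these data known. The muscle genes of the library that stood apart were named after their values were seen. Some items that this rule would name are not reported here.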

Additional observations from a re-analysis of the deposited data

How the results depend on the processing

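The replicate block, the mouse, set the number of calls: without it 178 genes were called in place of 754, 0 in place of 4 transport genes and 3 in place of 15 pathway genes. With 1 mouse left out, 459 (without mouse 3) to 854 genes, 3 to 4 transport genes and 11 to 16 pathway genes passed. On the recovered reads, edgeR called 782 genes, limma-voom 798 and DESeq2 531, each with the block. The excess of Kcnj10 over the others ran from 1.02 to 1.09 on 5 pairs, where the smallest exact permutation p is 0.0625. Against the median of the others, their summed level or the identity markers, and with pseudocounts of 0.1 or 1, it was 1.05 to 1.09 with an unchanged p. Against only the identity markers not called it was 1.18 with the same p, but that reference was chosen by its lack of calls in these same libraries. Of 120 values of the 8 transport genes under other settings, 111 kept their direction and side of the threshold, 8 lost the call, 1 gained it (Gja1 without mouse 4) and none changed sign. Of all 435 single-gene values, 391 kept their direction and side of the threshold, 42 lost the call and 1 gained it. The 1 that changed sign was Kcnj3, at 0.0048 without mouse 5 (with other mice left out, down to -0.087). Of the 15 pathway calls, 8 held in every setting with the block, and 12 were lost without the block. Depth limits Kcnj16, on 18 to 91 reads.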
